A study of Danio rerio with 6 samples.

Results

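The genes described here encode the first signalling steps beneath the T cell receptor. Of 10 genes chosen by symbol, 8 had a row among the 29095 symbols listed, and 7 are described here, namely the kinase genes lck, fyna, fynb and zap70, the adaptor gene sla2, the receptor chain gene cd247l and the co-receptor gene cd8a. The kinase gene txk and the adaptor gene lat matched no row by symbol and were not analysed here. RNA was measured in zebrafish of CG2, a clonal strain, with acute lymphoblastic leukaemia (ALL), in which immature lymphocytes proliferate. Cells of 3 tumours, numbered 1404, 1279 and 1314, were sorted by flow cytometry into a side population (SP) and a non-side population (nonSP), which gave 6 libraries in 3 pairs. By convention, SP cells are those that export a DNA-binding dye. The labels record no treatment, and the sources used here do not give their oncogene, the age of the fish or whether the tumours arose independently.

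In a T cell, Src-family kinases, chiefly Lck, which is held at the CD4 and CD8 co-receptors, phosphorylate the tails of the CD3 and zeta chains. The kinase ZAP-70 docks on these tails and phosphorylates the scaffold LAT, on which adaptors gather phospholipase C gamma and its activators. The SLAP adaptors, of which sla2 encodes a member, restrain the receptor in mammals with the ubiquitin ligase CBL. B cells use the related kinases Lyn, Blk, Syk and Btk at the same steps, so these genes also report lineage in lymphoid leukaemia.

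The question was whether these genes are expressed at different levels in SP and nonSP cells of the same tumour. Among the 7 genes, sla2 rose in SP, to a level 5.23-fold that of nonSP, and fynb fell to a level 2.39-fold lower. lck, zap70, cd8a and fyna did not pass the test, and cd247l had too few counts to be tested. Genes were tested with edgeR (quasi-likelihood, tumour as a block) and called at a Benjamini-Hochberg adjusted p below 0.05 over all 15770 genes tested. Of these genes, 13.0% were called higher in SP and 9.40% lower, so 1 call in each direction among the 6 genes tested here is near the background. The difference between tumours was wider than that between fractions for lck, cd8a and zap70, which stood highest in both fractions of tumour 1279.

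Levels are CPM, counts relative to a TMM-scaled library size, given in nonSP and then in SP, each time for tumours 1404, 1279 and 1314 in that order. Total counts per library ranged from 30213658 to 62398607, and a count of 0 allows up to 0.169 CPM in the shallowest library, nonSP of tumour 1279 (3 counts, counting error only). Scaling shifts every value between fractions, and library totals turned the direction of lck and zap70 among the genes tested here. Over all tested genes the log2 fold change had a median of 0.09 with TMM and 1.15 with library totals, where 96.7% of called genes were higher in SP, against 58.0% with TMM. The median log2 ratios by tumour with library totals were 0.79, 1.49 and 1.05, against 0.00043, 0.26 and -0.0017 with TMM. In bulk samples, fewer cells of a type and less RNA per cell cannot be told apart.

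**Figure D1:**
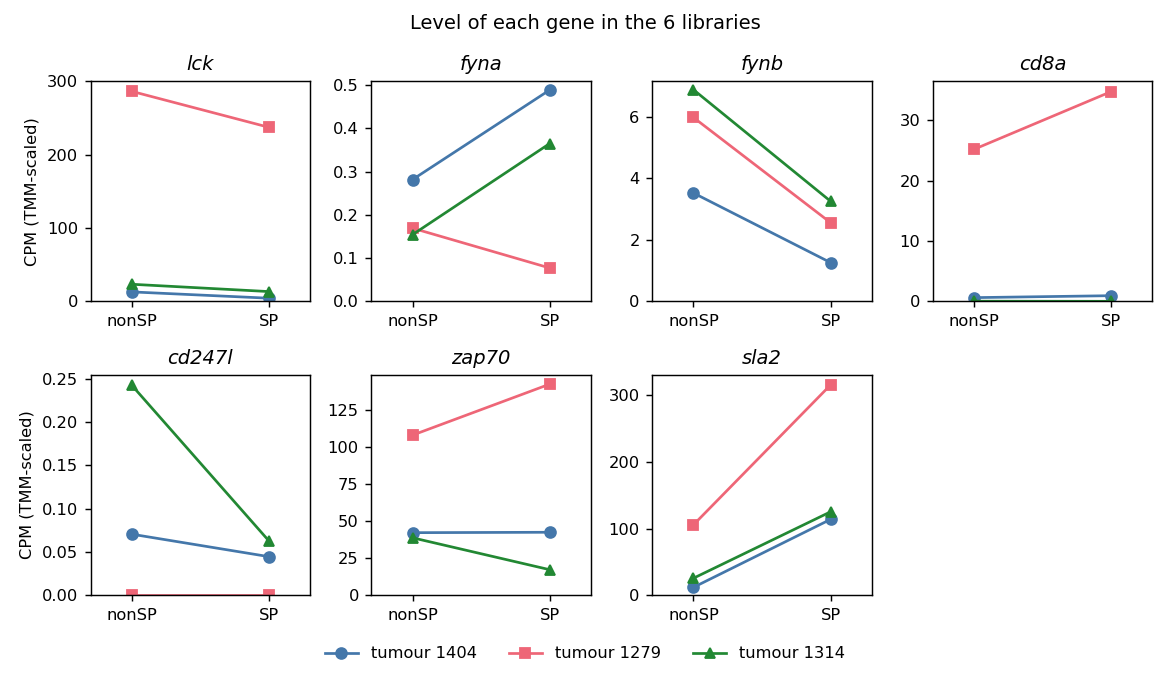
Level of each of the 7 genes in TMM-scaled CPM (vertical axis, from 0, its own scale in each panel) in nonSP and SP, with a line joining the fractions of a tumour. The lines of sla2 rise and those of fynb fall in all 3 tumours, and tumour 1279 stands above the others for lck, cd8a and zap70.

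The adaptor gene sla2 stood at 11.7, 106 and 25.3 CPM in nonSP and at 114, 316 and 125 CPM in SP. SP exceeded nonSP in each tumour, and the lowest SP library stood just above the highest nonSP library, a separation that 8.64% of tested genes showed. The log2 ratios were 3.28, 1.58 and 2.30, a fitted log2 fold change of 2.39 ± 0.42 (SE, n = 3 pairs; edgeR adjusted p = 0.000405). It ranked 520 by fold change among 15770 tested genes, with 496, 1871 and 1149 counts in nonSP against 7674, 20483 and 11992 in SP. With library totals the ratios were 4.10, 2.87 and 3.41, so its rise did not turn with the scaling. It passed in each fit that left out a tumour, with values from 1.83 to 2.81. The smallest value came without tumour 1404.

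A ratio of counts between genes of the same library needs no scaling. There were 26.8 counts of sla2 for each count of lck in SP of tumour 1404 and 0.908 in nonSP. In tumour 1279 these ratios were 1.33 and 0.369, and in tumour 1314 they were 9.43 and 1.09. The ratio was thus 29.5-fold, 3.61-fold and 8.65-fold higher in SP. The ratio of sla2 to zap70 was higher in SP by 9.70-fold, 2.27-fold and 11.1-fold.

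The paralogue sla1 was counted at 0.193 CPM in SP of tumour 1404 and at 0 in the other 5 libraries, and was chosen after its values were seen. The genes of the ubiquitin ligase partners, cbl and cblb, chosen likewise, did not pass the test. cbl stood at 0.66 ± 0.48 (edgeR adjusted p = 0.338), with log2 ratios of 1.06, -1.18 and 2.02. With TMM it was thus lower in SP of tumour 1279 alone, where its ratio with library totals was 0.12. cblb was at 0.83 ± 0.38 (edgeR adjusted p = 0.12), and its ratios were 1.46, 0.24 and 0.77.

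Among the Src-family kinases, fynb stood at 3.52, 5.98 and 6.88 CPM in nonSP and at 1.26, 2.56 and 3.26 CPM in SP. Every SP library lay below every nonSP library, as for 6.60% of tested genes. The log2 ratios of -1.46, -1.21 and -1.07 were the closest to each other among the 7 genes (SD 0.195), and the log2 fold change was -1.26 ± 0.41 (edgeR adjusted p = 0.0281). The call ended with library totals (-0.18, adjusted p = 0.76 in edgeR), where the ratios were -0.65, 0.068 and 0.024. It also ended without tumour 1279 (-1.26, adjusted p = 0.132) and without tumour 1314 (-1.35, adjusted p = 0.101), in a range of 0.0056 to 0.76 over the alternatives.

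lck, the Src-family kinase gene that marks T cells in zebrafish, stood at 12.8, 286 and 23.3 CPM in nonSP and at 4.24, 237 and 13.3 CPM in SP. SP was lower in each tumour with TMM, by log2 ratios of -1.59, -0.27 and -0.81, but with library totals the ratios were -0.77, 1.02 and 0.30. The log2 fold change of -0.89 ± 0.39 did not pass (edgeR adjusted p = 0.105), and it was 0.19 with library totals. DESeq2 called it lower (-0.97, adjusted p = 0.0436), in a range of 0.0436 to 0.962 over the alternatives.

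The paralogue fyna was rare, with 12, 3 and 7 counts in nonSP and 33, 5 and 35 in SP. Its log2 fold change of 0.55 ± 0.76 did not pass (edgeR adjusted p = 0.643). Reads of fyna and fynb, which are copies of the mammalian gene FYN, may be split between them where their sequences agree.

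ptprc encodes CD45, the phosphatase that removes the inhibitory phosphate of Lck. Its nonSP levels of 157, 50.9 and 111 CPM fell to SP levels of 66.1, 25.6 and 49.1 CPM, a log2 fold change of -1.14 ± 0.37 (edgeR adjusted p = 0.0302). Its ratios with library totals were -0.43, 0.30 and -0.072, where its value was -0.067 and not called. lck had 0.0815, 5.62 and 0.21 counts for each count of ptprc in nonSP and 0.0642, 9.27 and 0.271 in SP. Relative to this gene of all leukocytes, lck was thus lower in SP of tumour 1404 and higher in SP of the other 2 tumours. csk, the kinase that adds the inhibitory phosphate, was chosen after its values were seen and did not pass, at -0.13 ± 0.40 (edgeR adjusted p = 0.851). The call of ptprc ended without tumour 1279 (-1.20) and without tumour 1314 (-1.12).

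zap70, the kinase gene that acts after lck, stood at 42.1, 108 and 38.7 CPM in nonSP and at 42.4, 142 and 17.1 CPM in SP. The fractions were level in tumour 1404, SP was higher in tumour 1279 and lower in tumour 1314, with log2 ratios of 0.0094, 0.40 and -1.17. The log2 fold change was -0.25 ± 0.40 (edgeR adjusted p = 0.696). It turned to 0.82 with library totals and to 0.21 without tumour 1314.

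cd8a, the co-receptor chain gene, stood at 0.611, 25.2 and 0.0221 CPM in nonSP and at 0.934, 34.8 and 0 CPM in SP. It was counted 447 and 2257 times in nonSP and SP of tumour 1279, 26 and 63 times in tumour 1404, and 1 and 0 times in tumour 1314. The log2 fold change of 0.41 ± 0.48 did not pass with TMM (edgeR adjusted p = 0.579), and it passed with library totals (1.47, edgeR adjusted p = 0.0137), in a range of 0.0137 to 0.966 over the alternatives. cd247l, named for the zeta chain that carries the docking sites of ZAP-70, had 3, 0 and 11 counts in nonSP and 3, 0 and 6 in SP. Those counts allow no comparison. The co-receptor gene cd4, chosen after its values were seen, stood at 8.29, 94.9 and 0.905 CPM in nonSP and at 14.8, 135 and 0.47 CPM in SP, and did not pass (0.20 ± 0.41, edgeR adjusted p = 0.763).

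**Figure D2:**
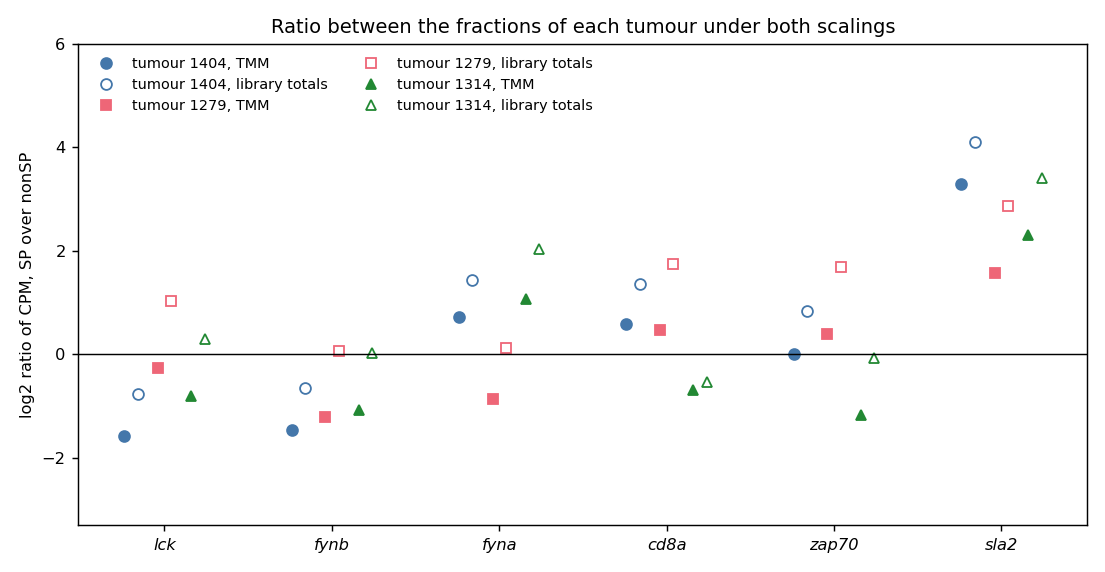
Log2 ratio of SP to nonSP CPM (vertical axis) for the 6 tested genes in each tumour, with TMM scaling (filled) and library totals (open). sla2 lies above 0 in all 3 tumours under both scalings. Between the scalings, lck and fynb change sign in tumours 1279 and 1314, and fyna in tumour 1279.

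Between tumours, 3 of the 7 genes, lck, zap70 and cd8a, were higher in both fractions of tumour 1279 than in any library of the other tumours. cd247l showed the opposite order, with 0 counts in tumour 1279 and 3 to 11 elsewhere, too few to rest an order on. Of all tested genes 11.4% showed the first order, and 15.1% the opposite one. Each tumour is 1 case, so these orders are a description with no test. The lower tumour 1279 library exceeded the highest of the other 4 libraries by 10.2-fold for lck, 27.0-fold for cd8a and 2.55-fold for zap70. The mean log2 level of lck ranged over 5.14 between tumours and that of cd8a over 9.34, against a median range of 1.62 over all tested genes. The low end of cd8a, in tumour 1314, rests on 1 and 0 counts, so its range depends on the prior count of 2. fynb ranged over 1.15, below that median. sla2 ranged over 2.32, and its nonSP level in tumour 1279 lay below both other SP levels, so the order of tumours held within each fraction and not across them.

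Markers of lymphocyte lineage followed the same division. Of 11 T cell marker genes with a row, 8 stood higher in both fractions of tumour 1279 than elsewhere, and of 13 B cell markers 10 stood lower. Among the tested markers these were 5 of 8 and 9 of 10, against 11.4% and 15.1% of all tested genes. The marker lists were chosen with earlier results of these data known, so these shares are a description. The filter before testing left out genes counted almost only in tumour 1279, such as tox and il7r. It kept genes counted almost only in the other tumours, such as ighd, which bears on these counts and shares. Some of the markers counted were rare, such as ccr7 and igl3v5, with at most 29 and 9 counts, which were not tested. Among the 9 tested B cell markers that stood lower, btk and igic1s1 were rare too. They had at most 94 and 66 counts, and at most 1 count in either fraction of tumour 1279. The T cell factor gene tcf7 reached 96.6 and 90.3 CPM in nonSP and SP of tumour 1279, against 0.376 to 12.3 CPM in the other libraries. bcl11ba, of another T cell factor, had 71.1 and 91.6 CPM there and at most 25.4 CPM elsewhere. gata3 stood at 65.3 and 88.5 CPM there and at 0.507 to 7.80 CPM elsewhere. The chemokine receptor gene ccr9a did not follow, with its highest level, 2975 CPM, in SP of tumour 1404. It was the only one of 8 tested T cell markers called, at 1.27 ± 0.30 (edgeR adjusted p = 0.00471), and the call ended without tumour 1404 (0.83, edgeR adjusted p = 0.108). The T cell markers rorca and cd28 were also highest in tumour 1404, at 106 CPM in SP and 1.46 CPM in nonSP. The B cell marker cd22 had 24 and 16 counts in tumour 1279 and 0 elsewhere. rorca and cd22 were chosen after their values were seen.

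The B cell factor gene pax5 stood at 0.113 and 0.0308 CPM in nonSP and SP of tumour 1279 and at 16.8 to 32.8 CPM in the other tumours. ighd, an immunoglobulin heavy chain gene, had 1 and 0 counts in tumour 1279 and from 1879 to 3764 counts elsewhere. ebf1a stood at 1.35 and 2.42 CPM in tumour 1279 and at 12.6 to 62.4 CPM elsewhere. All 6 libraries held rag2, the recombinase gene of immature lymphocytes, at 69.1, 209 and 83.8 CPM in nonSP and 30.9, 69.1 and 27.7 CPM in SP. It fell in SP (-1.45 ± 0.38, edgeR adjusted p = 0.00841), and the call ended with library totals (-0.38), without tumour 1279 (-1.36) and without tumour 1314 (-1.38). notch1a, another immature lymphocyte marker, was also counted in all 6 libraries. It stood at 25.7, 6.38 and 16.9 CPM in nonSP and at 80.9, 10.9 and 31.4 CPM in SP. rag1 and dntt instead differed widely between tumours. rag1 stood at 340 and 215 CPM in nonSP and SP of tumour 1279 and at 1.65 to 13.4 CPM elsewhere. It did not pass between fractions (-0.24 ± 0.41, edgeR adjusted p = 0.708). dntt, chosen after its values were seen, had 1 and 0 counts in tumour 1279 and 334 to 713 counts elsewhere.

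Tumours 1404 and 1314 nevertheless held zap70, sla2 and lck well above the level that 3 counts allow. lck had 286 counts at the least, in SP of tumour 1404, and zap70 had 1643, in SP of tumour 1314. The labels give all 3 tumours as ALL and name no lineage.

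**Figure D3:**
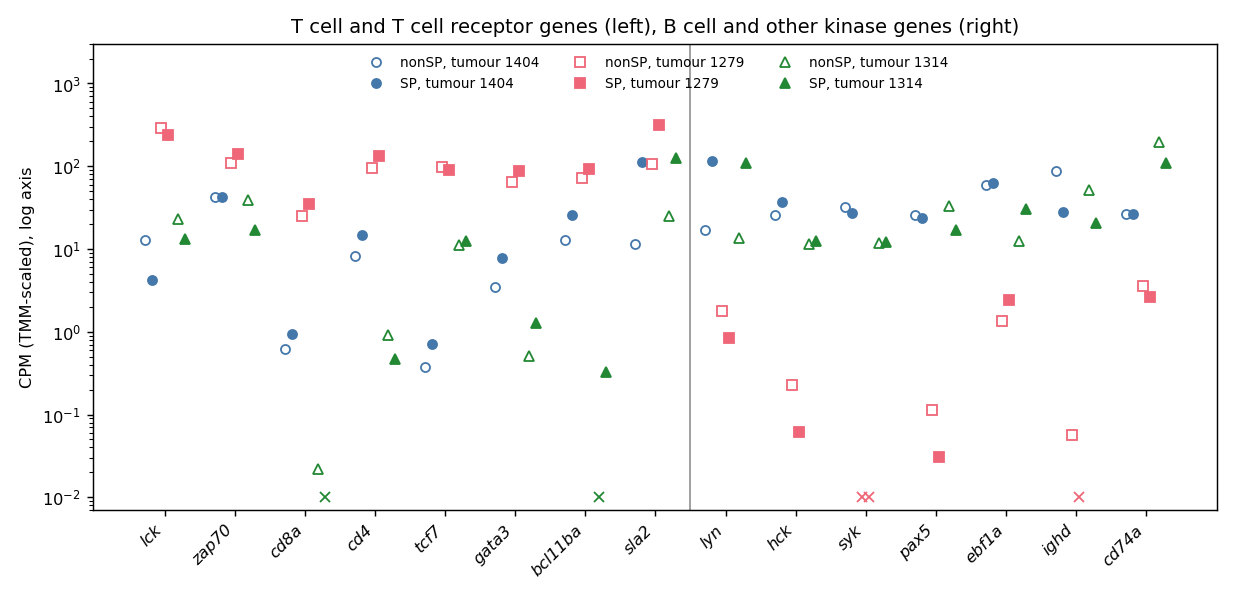
TMM-scaled CPM (vertical log axis) of T cell and T cell receptor genes left of the grey line and of B cell and other kinase genes right of it, by tumour (colour and shape) and fraction (open nonSP, filled SP), with crosses at the bottom for 0 counts. Tumour 1279 is highest for lck, cd8a, cd4 and tcf7 and lowest for syk, pax5 and ighd; heights of different genes are not comparable, since CPM is not scaled by length.

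Of the kinases that serve the B cell receptor, syk and lyn were lowest in tumour 1279, whereas blk, at low counts, was highest there within each fraction. syk, the relative of zap70, had 0 counts in both fractions of tumour 1279, and 32.2 and 11.8 CPM in nonSP and 27.5 and 12.3 CPM in SP of tumours 1404 and 1314. tec was also lower in both fractions of tumour 1279 than elsewhere, but narrowly. Its SP level was 8.72 CPM there and 8.91 CPM in tumour 1404. Of the 4 other Src-family genes tested, lyn and hck were lower in both fractions of tumour 1279 than elsewhere. btk was rare, with 1 count in each fraction of tumour 1279 and 6 to 94 counts elsewhere, too few to rest an order on. Between fractions, syk did not pass (-0.087 ± 0.44, edgeR adjusted p = 0.911), nor did tec (0.25 ± 0.38, edgeR adjusted p = 0.673), btk (0.007 ± 1.22, edgeR adjusted p = 0.997), hck (0.052 ± 0.45, edgeR adjusted p = 0.949) or src (-0.32 ± 0.64, edgeR adjusted p = 0.753).

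lyn, the Src-family kinase gene of B cells and myeloid cells, had 16.9 and 13.7 CPM in nonSP of tumours 1404 and 1314 and rose to 116 and 108 CPM in their SP fractions. In tumour 1279 it had 32 and 54 counts, and with TMM its log2 ratio of -1.08 was opposite to the 2.78 and 2.99 of the other tumours. The opposite sign did not hold with library totals, where the ratios were 3.60, 0.17 and 4.09 in tumours 1404, 1279 and 1314. With TMM the pooled log2 fold change was 1.84 ± 0.60 (edgeR adjusted p = 0.0305), and 2.91 without tumour 1279. The call ended with RLE factors (1.76, edgeR adjusted p = 0.0519). Without tumour 1404 or 1314 it was 1.13 or 1.003 and not called. There were 0.76 and 1.70 counts of lck for each count of lyn in nonSP of tumours 1404 and 1314 and 0.0364 and 0.122 in SP. In tumour 1279 this ratio was higher in SP, at 285 against 159 in nonSP. blk, another Src-family kinase gene of B cells, rose by 3.05 ± 0.70 (edgeR adjusted p = 0.00367), from 1, 9 and 3 counts to 43, 108 and 89. Its value was 4.12 without tumour 1279 and 2.46 without tumour 1404, and it was called in both. yes1 did not pass the filter and was not tested, with 43 and 152 counts in nonSP and SP of tumour 1314 and 0 to 4 elsewhere. fynrk, of at most 0.243 CPM, was chosen after its values were seen.

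Other genes of T cell receptor signalling moved in both directions in SP, at shares near those of all genes. Of 125 other symbols listed for the pathway, 85 had a row and 76 were tested, of which 9 rose (11.8%) and 7 fell (9.21%), with a median log2 fold change of 0.10 against 0.09 over all tested genes. With library totals edgeR called 42 higher and 0 lower, and 0 were lower at an unadjusted p below 0.05. The directions below hold with TMM scaling, and all 7 falls lost their call with library totals.

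Of 17 tested negative regulators 4 rose and 1 fell, and DESeq2 called 4 higher and 3 lower. ubash3ba, of the Sts phosphatase family that removes phosphate from ZAP-70 and Syk, rose by 2.5 ± 0.48 (edgeR adjusted p = 0.000867). Its nonSP levels were 0.869, 3.89 and 0.221 CPM, and those in SP 9.71, 10.3 and 1.43 CPM. dgkaa, of the diacylglycerol kinases that consume a product of phospholipase C gamma, rose by 1.87 ± 0.46. tnfaip3, which encodes the ubiquitin-editing enzyme A20, rose by 1.62 ± 0.43, and peli1b, a ubiquitin ligase gene, by 1.05 ± 0.37. The gene that fell was sh3kbp1 (-1.17 ± 0.38), a partner of CBL in receptor uptake. The other 12 were not called, with values from -1.01 (spry1, a Sprouty gene) to 1.41 (ubash3bb, the paralogue of ubash3ba), both chosen after their values were seen.

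Of 25 tested effector genes 5 rose and 1 fell. dgkzb, another diacylglycerol kinase gene, rose by 2.14 ± 0.41, while its paralogue dgkza, chosen after its values were seen, was at 0.20 ± 0.37 and not called. The other rising genes were prkcq (2.09 ± 0.72), the protein kinase C theta gene, sos2 (1.36 ± 0.41), a Ras exchange factor gene, bcl10 (1.25 ± 0.44), a gene of NF-kB activation, and pik3cd (1.05 ± 0.36), of a phosphoinositide kinase. prkcq had 16, 12 and 0 counts in nonSP and 238, 78 and 1 in SP. The gene that fell was plcg2 (-1.58 ± 0.37, edgeR adjusted p = 0.00426), the phospholipase gene chiefly of B cells. plcg1, its counterpart in T cells, narrowly missed the threshold at -1.02 ± 0.37 (edgeR adjusted p = 0.0506). Its log2 ratios were -1.28, -0.49 and -1.29, and it was chosen after these values were seen.

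Of 21 tested adaptor genes edgeR called 0 higher and 4 lower. At an unadjusted p below 0.05, 1 was higher, and DESeq2 and limma voom each called 1 higher. The falling genes were wasb (-1.43 ± 0.37) and wasa (-1.07 ± 0.36), of the actin regulator WASP, skap1 (-1.28 ± 0.37), an adaptor gene of integrin activation, and shc1 (-1.16 ± 0.37), an adaptor gene of the Ras pathway. wasa stood at 0.0053 with library totals. grb2b, a Ras pathway adaptor gene, was at 0.97 ± 0.36 (edgeR adjusted p = 0.0526). Of 11 tested regulators of Src-family kinases 0 rose in edgeR, DESeq2 and limma voom, with 1 higher at an unadjusted p below 0.05 in each, and 1, ptprc, fell. ptpn2b, a phosphatase gene, stood at 0.92 ± 0.36 (edgeR adjusted p = 0.0648). Likewise ptpn11a (0.62 ± 0.36), ptpn22 (-1.27 ± 0.58) and themis2 (1.02 ± 0.64) did not pass. Of 3 tested receptor genes, ptprc fell, and cd28 (-0.30 ± 0.83) and cd226 (0.97 ± 0.44) did not pass. cd226, an adhesion and costimulatory receptor gene, stood at 245 and 300.3 CPM in tumour 1279 and at 0.47 to 3.15 CPM in the other libraries.

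Of the 16 pathway genes called, ubash3ba, dgkzb, dgkaa and plcg2 kept their call in each fit that left out a tumour. ubash3ba stood at 3.14 without tumour 1279 and at 1.80 without tumour 1404. Without tumour 1404, bcl10 (0.46), prkcq (0.70), sos2 (0.72), peli1b (0.82) and pik3cd (0.83) lost theirs, and tnfaip3 stood at 1.02. Without tumour 1279, bcl10 (1.69), peli1b (1.22), pik3cd (1.12), sh3kbp1 (-1.39), shc1 (-0.96), skap1 (-1.31), wasa (-1.22), wasb (-1.20) and ptprc (-1.20) lost theirs, and prkcq stood at 3.22. Without tumour 1314, calls were lost for those 9 genes, at 1.58, 1.02, 1.1, -0.95, -1.36, -1.25, -0.91, -1.49 and -1.12 in the same order, and for sos2 (1.48) and tnfaip3 (1.53). With RLE factors bcl10 (1.16), peli1b (0.97), pik3cd (0.96) and prkcq (2.01) lost their call, at edgeR adjusted p from 0.0511 to 0.0712. With upper-quartile factors bcl10 (1.19), peli1b (0.99) and prkcq (1.99) lost theirs. wasa lost its call without a filter (-0.99).

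**Figure D4:**
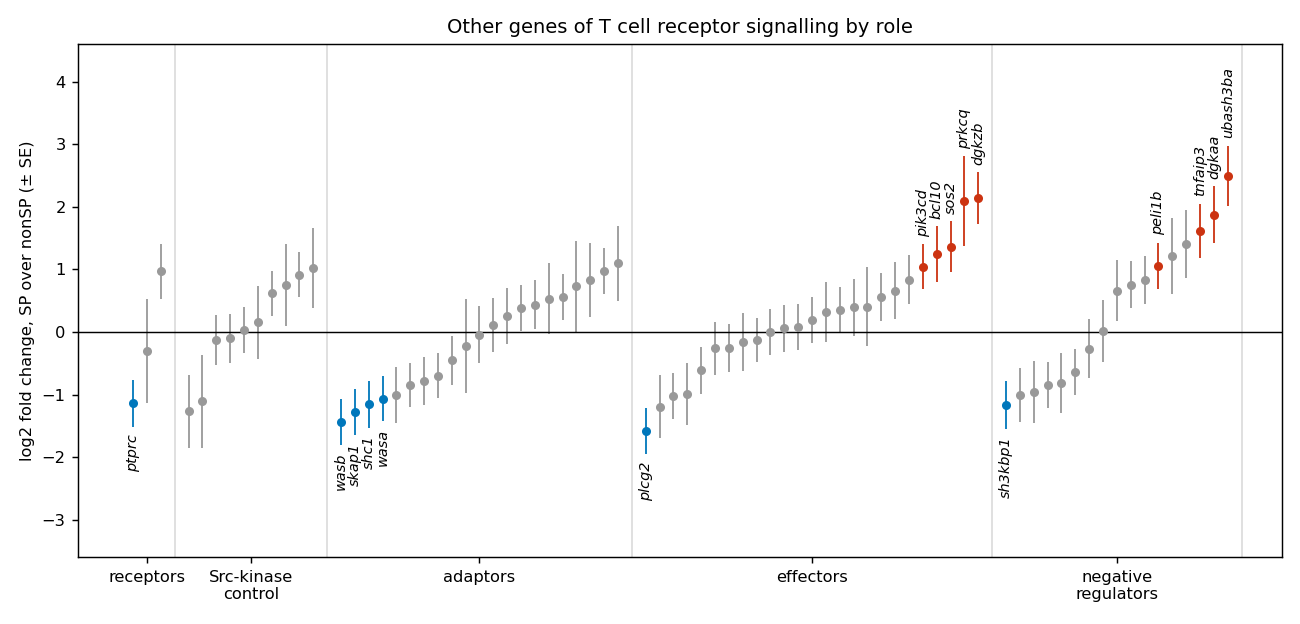
Log2 fold change of SP over nonSP with its SE (vertical axis) for the 76 other pathway genes tested, grouped by role and sorted within it, red where called higher, blue where called lower and grey otherwise. Of the genes called higher, 5 are effectors (20.0% of those tested) and 4 negative regulators (23.5%), and 4 of the 7 called lower are adaptors (19.0%). Over all genes 13.0% were called higher and 9.40% lower. The shares by role rest on few calls, with no test between roles.

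Between tumours, 25 of the 85 other pathway genes with a row were higher in both fractions of tumour 1279 than elsewhere, and 14 were lower. Among those tested these were 23 of 76 and 14 of 76, against 11.4% and 15.1% of all tested genes. The count of 14 is near its background. The pathway lists were chosen with earlier results of these data known, so these counts are a description with no test. The filter left genes counted almost only in tumour 1279, such as themis, out of the tested counts. Among the higher were themis, a thymocyte gene with 203 and 737 counts in nonSP and SP of tumour 1279 and at most 3 in any other library, and grap2a, an adaptor gene of the LAT complex with 1096 and 4085 counts there. Both were chosen after their values were seen. grap2a had 2 counts in each fraction of tumour 1314 and 149 and 312 in tumour 1404. plcg2 was lower in tumour 1279 than elsewhere, at 6.66 and 2.08 CPM against 7.81 to 32.9 CPM.

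The genes whose log2 CPM followed lck most closely over the 6 libraries, among 4946 genes of average log2 CPM of at least 3, were svila (Pearson r = 0.994), prkcbb (0.991), rorc (0.986), raf1b (0.983) and tlk1b (0.983). Genes whose symbol is a clone or locus name were left out of this search. The libraries of a tumour share their source, so r mainly follows 3 tumours and is a description. rorc, of a nuclear receptor of T cell development, stood at 65.2 and 56.7 CPM in nonSP and SP of tumour 1279 and at most at 0.313 CPM elsewhere, whereas svila varied only between 25.9 and 60.7 CPM. zap70 had an r of 0.807 with lck, cd8a 0.743 and sla2 0.427.

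Markers of other cells that a sort gate could hold moved in part with the fractions, and their part in the results was not tested. The summed level of 16 myeloid markers was 944, 475 and 95.2 CPM in nonSP and 1503, 835 and 99.7 CPM in SP, of which cebpb made up 630, 444 and 44.3 CPM and 852, 811 and 60.2 CPM. mmp9 made up 160, 12.2 and 4.46 CPM in nonSP and 353, 13.2 and 10.6 CPM in SP. The neutrophil gene mpx, chosen after its values were seen, rose from 2.77, 0.846 and 0.176 CPM to 37.3, 3.55 and 3.12 CPM (3.33 ± 0.47, edgeR adjusted p = 4.4e-05). cebpa, chosen likewise, fell (-2.03 ± 0.37), and lyz and mpeg1.1 had at most 24 and 7 counts. The B cell markers summed to 252, 8.97 and 312 CPM in nonSP and to 198, 8.82 and 200.5 CPM in SP, and the T cell markers to 811, 921 and 135 CPM and to 3117, 1425 and 242 CPM, of which ccr9a made up most in every library. Of 10 tested B cell markers blnk, chosen after its values were seen, rose (1.31) and ighd fell (-1.56). Both calls ended without tumour 1279 (1.33 and -1.47) and without tumour 1314 (1.35 and -1.81), and that of blnk also without tumour 1404 (1.276). blnk had 0 counts in both fractions of tumour 1279, so its value rests on tumours 1404 and 1314. Its call also ended with DESeq2 (1.16), limma voom (1.11) and RLE factors (1.24), and that of ighd with library totals (-0.60). The 10 natural killer markers summed to 1.36, 92.4 and 1.83 CPM and to 1.76, 175 and 0.647 CPM, nearly all of it ncam1a in tumour 1279. Immature lymphocyte markers summed to 129, 577 and 118 CPM and to 147, 321 and 71.9 CPM, and of 6 tested rag2 fell and notch1a rose (1.11 ± 0.37, edgeR adjusted p = 0.0334). The call of notch1a ended with RLE factors (1.03) and in each fit that left out a tumour (0.73 to 1.29).

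Erythroid markers summed to 16.7, 30.8 and 84.9 CPM and to 38.9, 36.2 and 53.5 CPM, with hbaa1 at most at 21 counts. Of these sums tfr1a made up 5.45, 26.4 and 82.8 CPM in nonSP and 17.0, 30.3 and 47.0 CPM in SP. Of 4 tested, slc4a1a rose (1.60 ± 0.43, edgeR adjusted p = 0.0108), as did epor (3.56 ± 1.16, edgeR adjusted p = 0.029), which had 2, 0 and 0 counts in nonSP and 18, 15 and 17 in SP and was chosen after these were seen. The call of slc4a1a ended without tumour 1314 (1.24), and that of epor without tumour 1279 (3.29), without tumour 1314 (2.99) and with DESeq2 (3.84). Thrombocyte markers stood at 0.814 to 3.45 CPM in sum, with itga2b and mpl at 0 in every library. Fibroblast, epithelial, endothelial and muscle markers summed to 3.03, 16.5 and 1.79 CPM in nonSP and to 26.0, 37.8 and 4.97 CPM in SP, where dcn, lum and fli1a made up most. Of the 5 tested, 2 rose, dcn and lum, against 13.0% of all tested genes. The collagen genes col1a1a, col1a2 and col5a1 had at most 12, 28 and 14 counts and were not tested.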

How the data were processed

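Raw counts per gene symbol, 1 table per library, were deposited by the authors. The submitters' processing notes name build GRCz10, the aligner STAR (2.5.1b), featureCounts (1.28.1), edgeR (3.20.7), DESeq (1.30.0) and Cufflinks (2.2.1). What each was used for, the annotation and strandedness are not given in these sources. Overlapping genes, such as those that RefSeq's GRCz12tu table places across lck, cd8a and sla2 (now sla2b), may therefore share reads. Sequences and gene lengths were not used here.

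Genes were fitted with edgeR 4.0.16 in R 4.3.3: filterByExpr by group (minimum count 10, minimum total 15; 15770 genes), TMM, robust glmQLFit and glmQLFTest with tumour as a block, and Benjamini-Hochberg adjustment at 0.05. The SE is the log2 fold change divided by the square root of F, and rests largely on spread shared among genes (23.2 prior degrees of freedom). Log2 ratios used a prior count of 2. Fractions with the same tumour number come from that tumour per the design text, and their deviations from the group means correlated at 0.753, 0.839 and 0.818 for tumours 1404, 1279 and 1314. All pairs of libraries differed beyond sampling noise (lowest chi-square per degree of freedom 314). Whether the authors used a block is not stated in these sources.

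One of the chosen genes with a row is not reported here. Named genes were the others, up to 5 genes of lowest p per pathway list, all genes of the kinase and SLAP families, up to 4 markers of highest mean CPM per cell type, and the 5 genes most correlated with lck among those searched. Several of these markers, among them ncf1, mmp13a, alas2 and il7r, enter only the counts of markers or their summed levels. The members and lists were chosen with earlier results of these data known. Genes said to be chosen after their values were seen, the low-count markers, and bcl10 were added to the rule. Alternatives were DESeq2 1.42.0, limma 3.58.1 voom, RLE and upper-quartile factors, library totals, no filter, a stricter filter (10 counts in 3 libraries, average log2 CPM at least 3), leaving out each tumour, and no block. On data simulated with the tumour block, 62.1% of genes changed 4-fold, 1.49% of those changed 2-fold and 0% of those changed 1.5-fold were recovered among 15385 tested. Only 66, 67 and 67 genes were changed at these folds, a far smaller share than was called in the data. The recovery in the data may therefore differ.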

Additional observations from a re-analysis of the deposited data

How the results depend on the processing

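The rise of sla2 kept its direction in all 11 alternatives (1.83 to 3.46) and its call in 10, the exception being the fit without the tumour block. Without the replicate block edgeR called 0 genes higher and 0 lower, with 1251 at an unadjusted p below 0.05, and so 0 of the 7 genes and 0 other pathway genes in either direction. With library totals 8015 genes were higher and 277 lower, 2 of the 7 genes were higher (sla2 and cd8a) and 0 lower, 42 other pathway genes were higher and 0 lower, and lck and zap70 turned to 0.19 and 0.82. The value of zap70 also turned without the block (0.098) and without tumour 1314 (0.21, the highest of its values with a tumour left out, the lowest being -0.56). With the stricter filter, which tested 6090 genes, 1048 genes were higher and 904 lower and 0 of the 7 genes were lower, since fynb was not tested. DESeq2 called 2 of the 7 genes lower, fynb and lck. With RLE factors 5 other pathway genes were higher, and with DESeq2 11 were lower. Leaving out a tumour gave 1141 to 1396 higher and 667 to 1685 lower genes over all, 1 higher and 0 to 1 lower among the 7, and 4 to 6 higher and 1 to 8 lower other pathway genes. Fewer samples or genes were tested in the fits with a tumour left out and with the stricter filter, and the cause of the other changes was not tested. Counts of cd247l and fyna, and of cd8a in tumour 1314, are too low to show a difference between fractions.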
